A study of Arabidopsis thaliana with 32 samples.

Results

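Of 10816 features on a cDNA array enriched for flower transcripts, 46 had low ratios in callus early after LEAFY activation and ratios near 0 later. They were chosen by measured values. The mean log2 ratio over the 12 arrays at 2, 4 and 6 h (the early mean) had to be -0.35 or lower, with 9 or more of the 12 values below 0. The mean over the 12 arrays at 10, 12 and 22 h (the late mean) had to be above -0.2 and at least 0.25 above the early mean. In all, 10475 features had 10 or more values in each window and could be judged. Of these, 236 met the early conditions, and 46 of the 236 also met the late ones. The early and late values below are therefore descriptions of the choice and carry no test.

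Each of the 32 arrays compared RNA of dexamethasone-treated callus with RNA of callus given a control solution for the same time, with 4 arrays at each of 0, 2, 4, 6, 8, 10, 12 and 22 h. All of the tissue, controls included, was from root explants carrying 35S:LFY-GR, in which the 35S promoter drives the fusion in most tissues, so callus without the transgene is not part of these comparisons. Nothing states whether the 4 arrays at a time came from separate cultures or from repeat labelling of fewer RNA pairs, so the p-values cover array-to-array spread only and may be technical. In such bulk RNA, fewer cells of a type and less RNA per cell cannot be told apart. The treated RNA was in channel 2 on replicates 1 and 3 and in channel 1 on replicates 2 and 4, and the ratios of the latter were turned. A negative ratio means less signal from treated than from control RNA if channel 2 was the numerator of the ratios, a likely reading by convention that no source states. With channel 1 as the numerator all signs below exchange. Single arrays also disagreed with each other: arrays of 1 orientation correlated as low as -0.311 over all features. Their average correlation within a time point was 0.120 to 0.335 from 2 to 22 h. Under exchanged signs the 46 features would be ones with high early ratios, and their counts and sizes would stay as given.

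LEAFY is a plant transcription factor that gives young meristems floral identity, and it is best known as an activator of floral genes such as APETALA1 and AGAMOUS. In the LFY-GR fusion the hormone-binding part of the rat glucocorticoid receptor keeps the protein out of the nucleus until dexamethasone is added. Callus is a mass of dividing, unorganised cells, and callus of roots does not normally make flowers. The identifiers look like plate positions and were read as such (GP042B7 as plate 42, row B, column 7), which no source states. Of these identifiers 0 were found in the TAIR10.1 gene list, and the files do not pair them with genes. No gene function can be given, the tissue could not be checked against marker genes, and several features may hold copies of 1 transcript.

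The name that the rule implies, low early and then back to the starting level, did not describe many of the 46 features, because their mean ratios were already low at 0 h. Of the 45 with a 0 h value, 24 (53.3%) had a 0 h mean of -0.2 or lower, against 6.17% of the features that could be judged. The 0 h arrays played no part in the choice. The median of the 0 h means was -0.26, beside -0.40 for the early means, -0.20 for the 8 h means and 0.01 for the late means. All 4 arrays at 0 h lay below 0 for 17 of the 46 features, against 5.04% of those judged. The early mean lay below the 0 h mean in 32 of the 45 features, by 0.35 or more in 11, and above it in 13. They are therefore called early-low features here, without reference to a baseline.

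**Figure D1:**
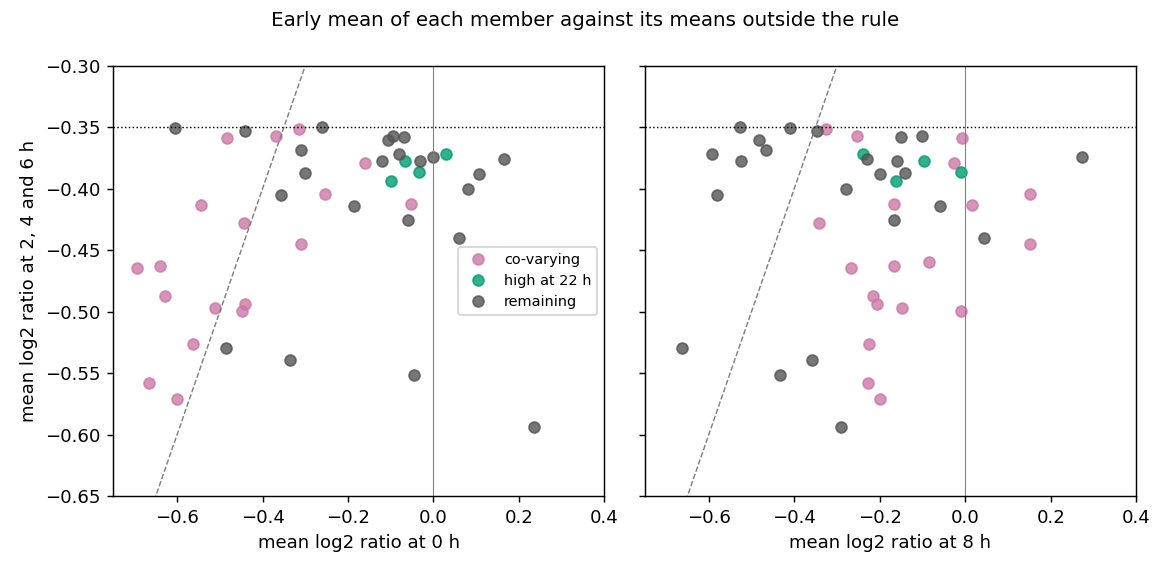
Mean log2 ratio at 2, 4 and 6 h (vertical axis) against the mean at 0 h (left) and at 8 h (right), 1 point per early-low feature, coloured by the groups described in the text. The dashed line marks equal values, the dotted line the early limit of -0.35. On the left, 24 of the 45 points lie at or left of -0.2.

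The features fell into groups by how they moved from array to array. Average-linkage clustering on correlations over the 32 arrays, joined at r of 0.7, put 19 features into 1 co-varying group, and joining at 0.8 gave the same 19. A second group held 4 features that were high at 22 h. The 23 remaining features formed groups of 3 or fewer. The groups were formed after the values were seen, and they are described only. Any p-values given below for their features are no test of a group.

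**Figure D2:**
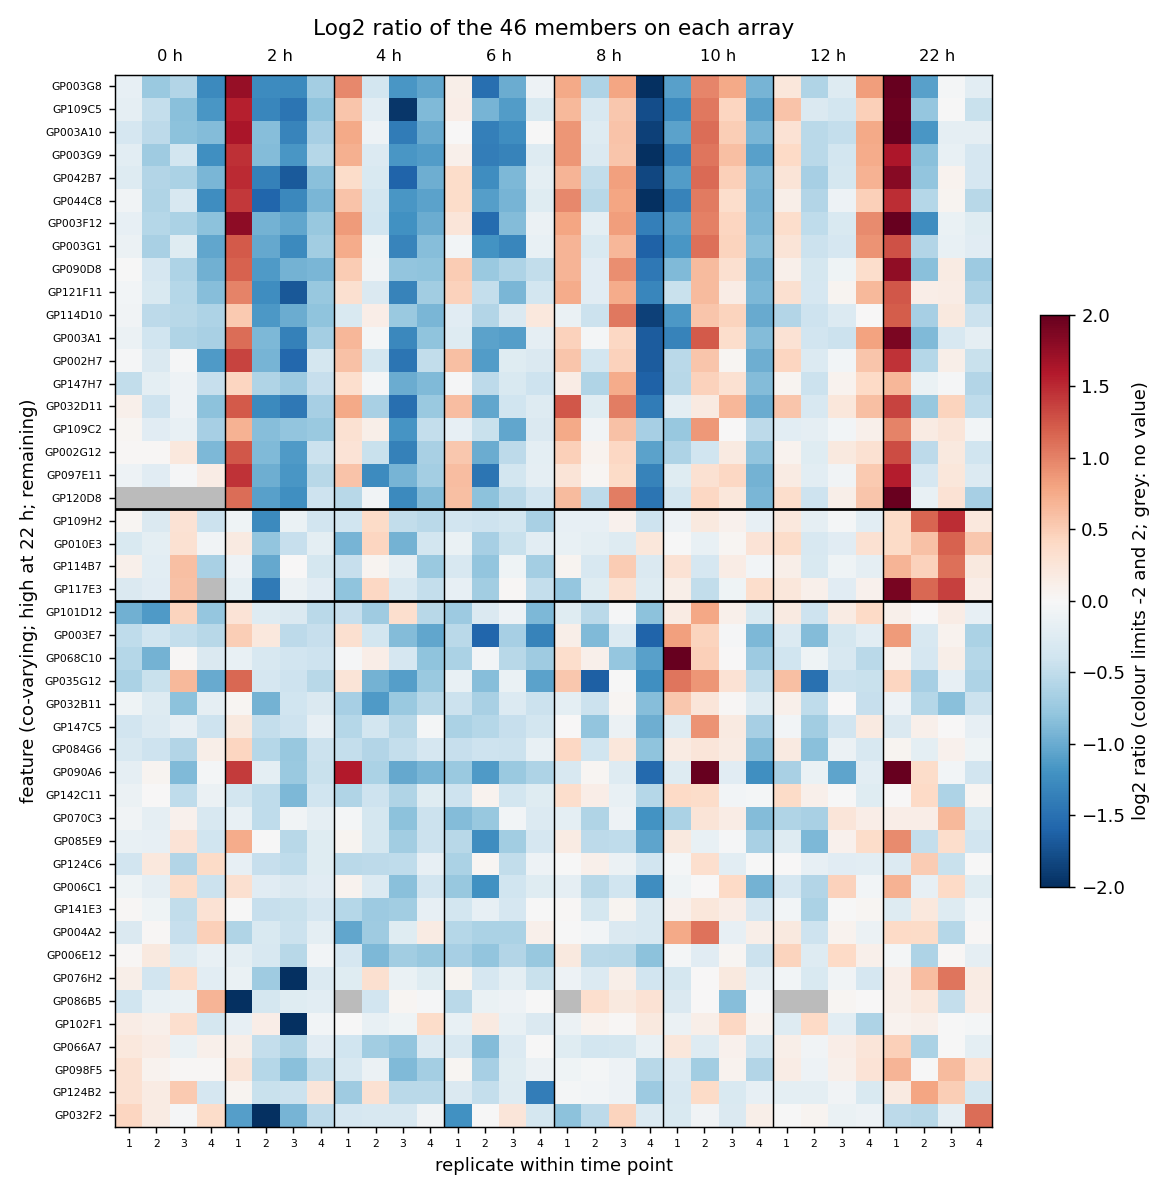
Log2 ratio of the 46 early-low features (rows) on the 32 arrays (columns, by time point and replicate), red above 0, blue below 0, grey for no value. The top 19 rows share 1 pattern from array to array, with replicate 1 red and replicates 2 to 4 blue at 2 h, and the 4 rows below them are red at 22 h.

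The 19 co-varying features had the largest spread between arrays of 1 time point of the 3 groups, with a median standard deviation (SD) of 0.82, against 0.36 in the remaining group, 0.33 in the group high at 22 h and 0.25 over all judged features. Their pairwise correlations over the 32 arrays ran from 0.70 to 0.99, with a median of 0.89 over 171 pairs. On the 8 arrays at 0 and 8 h alone the median correlation was 0.95, and these arrays were among the 32 that formed the group. These features share the arrays, and nothing in the files tells apart copies of 1 transcript from different transcripts.

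GP042B7 shows the pattern of this group, with the second lowest early mean of the 46 features, -0.57. At 0 h its 4 arrays gave -0.25, -0.59, -0.64 and -0.92. At 2 h they gave 1.5, -1.35, -1.67 and -0.83, so that replicate 1 was far above 0 and the others were below it. At 8 h the values were 0.68, -0.49, 0.83 and -1.82, and at 22 h they were 1.82, -0.80, 0.07 and -0.34. Its mean went from -0.60 ± 0.27 (SD, n = 4) at 0 h through -0.59 ± 1.43 at 2 h to 0.19 ± 1.14 at 22 h. At every time point after 0 h the spread between arrays was larger than the size of the mean itself.

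The same held for the group's median on each array. On replicate 1 the group's median was 1.24 at 2 h, 0.57 at 4 h and 0.24 at 6 h. On replicate 3 it was -1.27, -1.28 and -0.90 at the same times. By replicate, the median of the early means was 0.74, -0.78, -1.11 and -0.56 for replicates 1 to 4, and the early mean on replicate 1 was below 0 for 1 of the 19 features. All 4 arrays at 0 h had a negative median, from -0.89 to -0.11, and 16 of the 18 features with a 0 h value had a 0 h mean of -0.2 or lower. The early mean was below the 0 h mean in 7 of those 18.

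**Figure D3:**
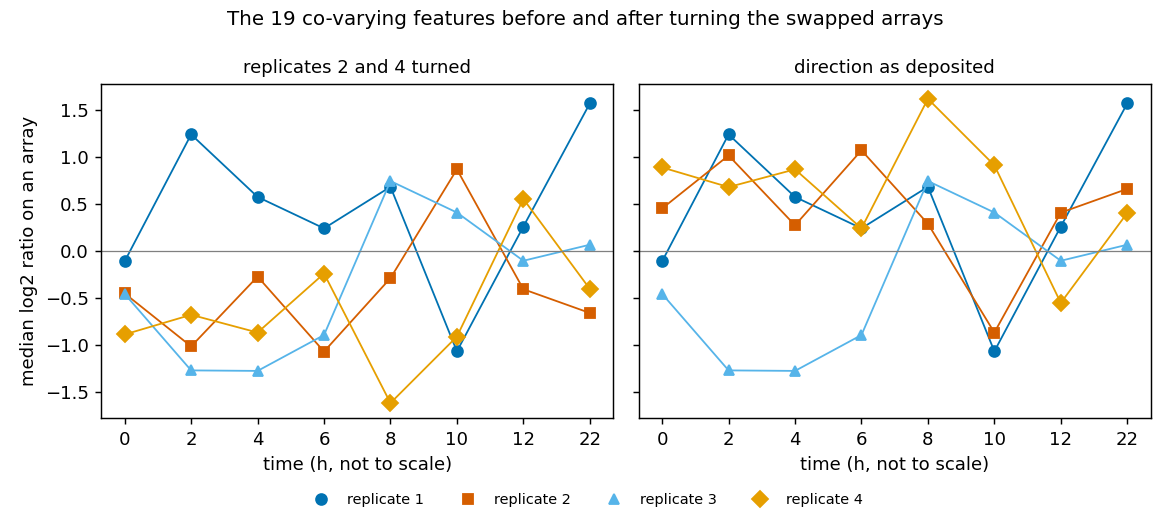
Median log2 ratio of the 19 co-varying features on each array by time point and replicate, with replicates 2 and 4 turned (left) and in the direction as deposited (right). On the right, replicates 1 and 2 lie on the same side of 0 at 7 of the 8 time points, and all 4 replicates lie above 0 at 8 h and at 22 h.

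The signs of the co-varying group differed between the pairs of replicates with swapped channels. Before the swapped arrays were turned, replicates 1 and 2 had medians of the same sign at 7 of 8 time points, although they carried the treated RNA in opposite channels. Replicates 3 and 4 had the same sign at 4 of 8 time points, both as deposited and after turning. At 8 h all 4 arrays were above 0 as deposited, with medians of 0.68, 0.29, 0.74 and 1.62, whereas after turning they were 0.68, -0.29, 0.74 and -1.62. For the remaining 23 features the medians of replicates 1 and 2 had the same sign as deposited at 2 of 8 time points. In the fit to the 8 arrays at 0 and 8 h, the dye term of the co-varying features had a median of 0.48, against 0.01 over all features tested, and was above 0 in 18 of 18. By limma, 0 of them passed an adjusted p of 0.05 (0.00938% of all features did), and 13 of 18 had an unadjusted p under 0.05 (16.5% of all features did). With all 32 arrays, limma called the dye term of 4 of 18 (adjusted p under 0.05; 30.1% of all features), and that fit uses arrays that chose the features. The 8 arrays at 0 and 8 h were also among the 32 that formed the group, and its features move together on them. Counts of its features therefore repeat 1 shared pattern and are no separate support. This dye term was looked at after the data were seen, and its part in the early ratios was not tested.

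The co-varying features lay on 12 of the 114 plates, and 6 of the 19 lay on plate 3, which held 7 of all 46 early-low features (15.2%) and 0.840% of the judged ones. The 88 judged features of plate 3, those 6 included, had correlations from -0.57 to 0.98 with the mean profile of the 19, with a median of 0.30. The pattern was not limited to the chosen features. In all, 68 judged features on 42 plates had a correlation of 0.8 or more with that profile, of which 49 were outside the 46. All 49 had an early mean below 0 (median -0.24), 43 of them above the limit of -0.35, and 37 had a 0 h mean of -0.2 or lower.

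The 23 remaining features came closer to the described course, with a smaller spread. Their array medians averaged -0.15 ± 0.02 (SD over 4 arrays) before treatment had run for any time (0 h), then -0.30 ± 0.24, -0.43 ± 0.12 and -0.44 ± 0.13 through the early window of 2, 4 and 6 h. They stood at -0.33 ± 0.36 at 8 h, and the late window of 10, 12 and 22 h gave -0.03 ± 0.26, -0.13 ± 0.16 and -0.01 ± 0.12. All 4 arrays at 4 and 6 h lay below all 4 arrays at 0 h, a difference that the choice on early values favours. The early mean was below the 0 h mean in 21 of the 23, by 0.2 or more in 16, and 8 had a 0 h mean of -0.2 or lower. On each replicate the median early mean was negative, with -0.30, -0.52, -0.51 and -0.32 for replicates 1 to 4.

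**Figure D4:**
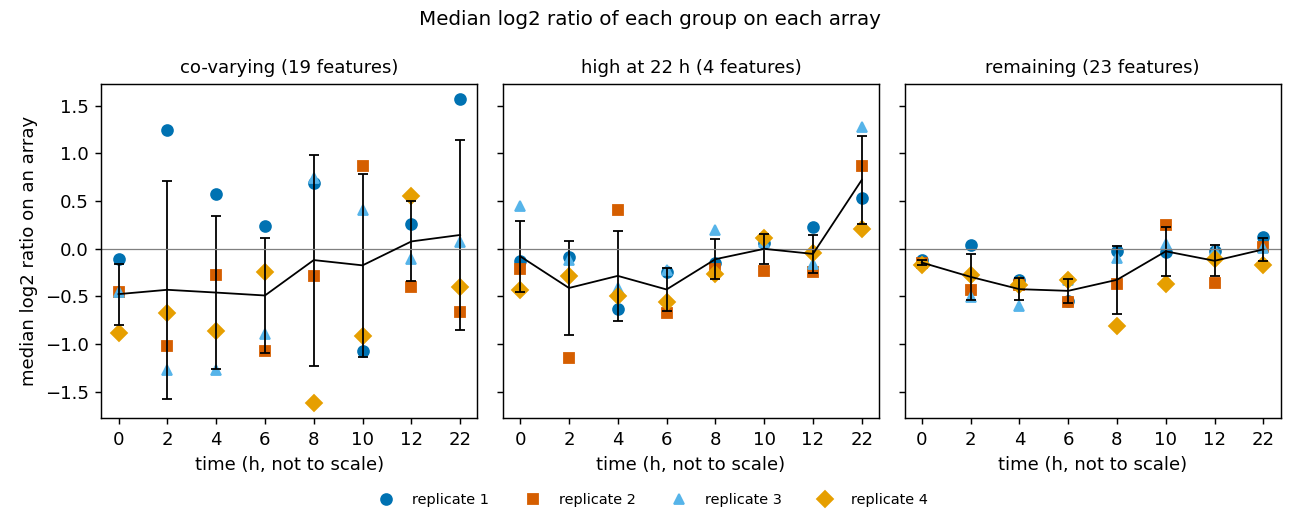
Median log2 ratio on each array for the 19 co-varying features, the 4 high at 22 h and the 23 remaining ones, by time point. Symbols are arrays, and black lines with bars are the mean ± SD of 4 arrays. The remaining group lies between -0.60 and -0.33 at 4 and 6 h, while the co-varying group spans from -1.28 to 0.57 at 4 h.

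Among all 46, 3 features were below 0 on 12 of 12 early arrays, GP006E12, GP070C3 and GP141E3, and all 3 belong to the remaining group. They were named after their values were seen. GP006E12 gave 0.03, 0.19, -0.25 and -0.15 at 0 h, -0.33, -0.90, -0.69 and -0.76 at 4 h, -0.67, -0.79, -0.59 and -0.76 at 6 h, and 0.45, -0.26, 0.41 and 0.10 at 12 h. Its means were -0.05 ± 0.20 at 0 h, -0.70 ± 0.09 at 6 h and 0.17 ± 0.33 at 12 h, so that the arrays at 6 h lay below every array at 0 and 12 h. The other late times were lower, with means of -0.16 ± 0.21 at 10 h and -0.20 ± 0.29 at 22 h, where replicate 2 (-0.62) lay below the highest 6 h value. GP070C3 reached its lowest mean later, -0.53 ± 0.49 at 8 h, and stood at 0.15 ± 0.39 at 22 h. GP141E3 was lowest at 4 h, with values of -0.57, -0.73, -0.70 and -0.16.

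The lowest early mean of all 46 features, -0.59, was that of GP032F2, and it came mostly from 2 h. Its values there were -1.1, -2.19, -0.93 and -0.53, all below its 0 h values of 0.42, 0.17, -0.02 and 0.37. At 4 h its mean was -0.26 ± 0.12. Without the array that gave -2.19 the early mean was -0.45.

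For other features 1 array set the early mean. GP102F1, named after its values were seen, gave -0.16, 0.13, -4.92 and -0.06 at 2 h, and without the third of these its early mean moved from -0.44 to -0.03. GP086B5 had 1 value of -2.17 at 2 h, and its early mean moved from -0.37 to -0.19 without it. Of the 46 features, 19 kept an early mean of -0.35 or lower without their lowest early array, 11 of them in the co-varying group and 8 in the remaining group. The late means were not examined in this way, and they can also rest on 1 array. GP068C10, named after its values were seen, had a late mean of 0.05. At 10 h it gave 2.93, 0.48, 0.01 and -0.73.

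**Figure D5:**
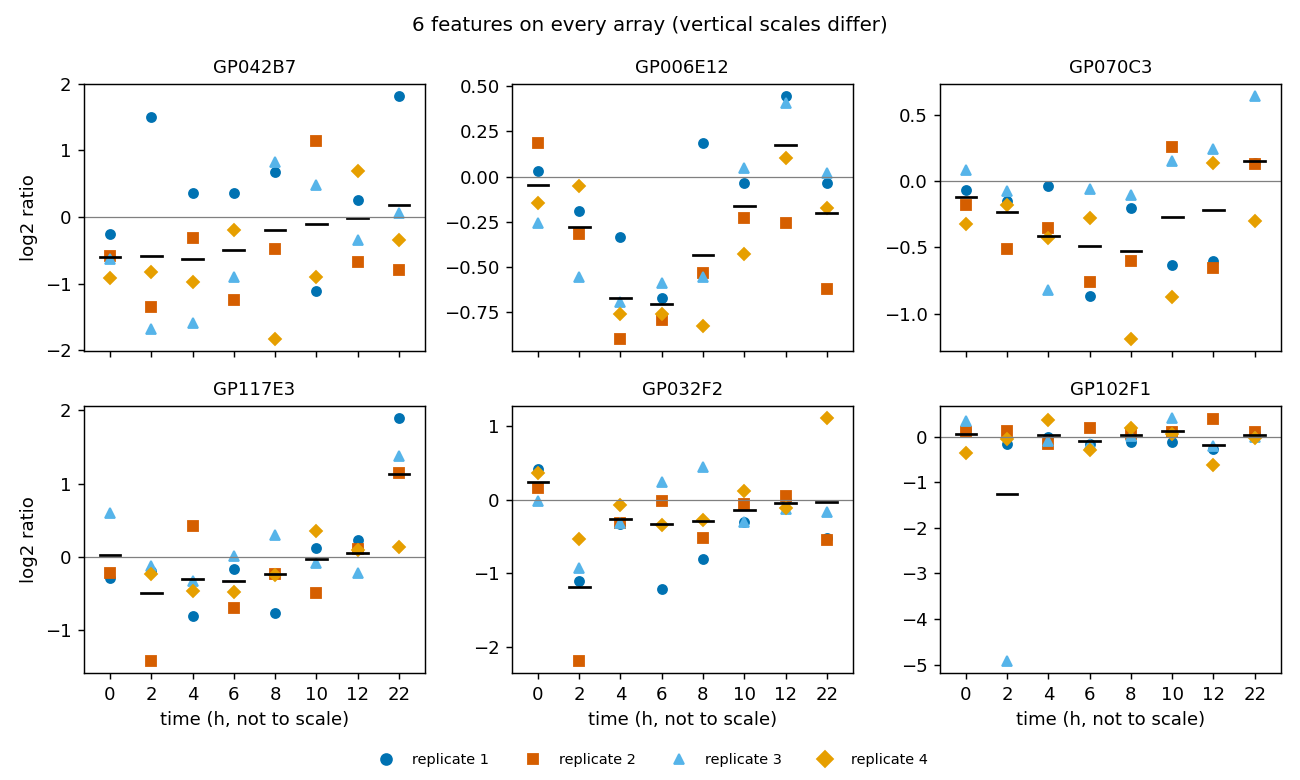
Log2 ratio on every array by time point for 6 early-low features, with replicates as symbols and black dashes for means. GP042B7 spreads over more than 3 units at 2 h, GP006E12 is low at 4 and 6 h on all 4 arrays, GP117E3 is above 0 on all arrays at 22 h, and a single array at 2 h sets the early mean of GP102F1.

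The 4 features high at 22 h were near 0 at 10 and 12 h and above it at 22 h, and they include the 2 with the largest late minus early difference. GP117E3 had a difference of 0.76. It gave -0.19, -1.42, -0.12 and -0.23 at 2 h and 1.89, 1.15, 1.37 and 0.13 at 22 h, with a mean of 1.14 ± 0.74 at 22 h beside 0.05 ± 0.19 at 12 h. GP109H2 had a difference of 0.65, with a mean of -0.45 ± 0.13 at 6 h, -0.05 ± 0.19 at 12 h and 0.81 ± 0.61 at 22 h. In the group of 4, all values at 22 h were above 0, and its median on an array went from -0.06 ± 0.20 at 12 h to 0.72 ± 0.46 at 22 h. At 4 h its replicate 2 stood apart at 0.40, with all 4 features above 0 there, while the other 3 arrays gave -0.64, -0.41 and -0.50.

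Among all 46 features the time of the lowest early mean was 2 h for 11, 4 h for 17 and 6 h for 18. The late mean was above 0 in 24 and the 22 h mean in 33, and it was above 0.35 at 22 h in 8. Near the early limit, GP101D12 (early mean -0.351) and GP090A6 (-0.35) were just inside, and GP141G2 (-0.339) and GP006H5 (-0.339) were just outside it. GP101D12 had a 0 h mean of -0.60 ± 0.72, lower than its early mean.

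The arrays at 0 and 8 h allow a test, since the choice did not use them. At 8 h the mean was between the early and the late mean in 32 of the 46 features, at or below the early mean in 8 and at or above the late mean in 6. It was -0.2 or lower in 23 of the 46, against 14.8% of the judged features, and all 4 arrays were below 0 in 7, against 7.47%. By limma on the 8 arrays, 0 of the 45 features tested had an 8 h ratio that differed from 0 at an adjusted p of 0.05, where 1.81% of all 10659 features tested did (193 features, 45 of them on the negative side). At an unadjusted p under 0.05 there were 8 of 45, all negative, where 5.58% of all features were negative at that level. None of the 8 was a co-varying feature. Without replicate 4 there were 7 of 45 at that level, 5 of them negative, against 12.7% of all features, with 6.11% negative. When the spread was taken from all 32 arrays, limma called 1 of 45, GP006E12 (adjusted p = 0.0409), where 3.21% of all features were called.

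The lowest 8 h means were those of GP003E7 and GP006C1. GP003E7 gave 0.11, -0.89, -0.27 and -1.60 at 8 h, with a mean of -0.66 ± 0.75 (limma SE 0.19, adjusted p = 0.172, between 0.112 and 0.385 over the other settings tried). It was also below 0 on every array at 0 h, with -0.51, -0.40, -0.48 and -0.55. GP006C1 gave -0.18, -0.55, -0.40 and -1.24 at 8 h and had a mean of -0.59 ± 0.46 (limma SE 0.14, adjusted p = 0.0819, from 0.0635 to 0.284 over the settings), while its 0 h mean was -0.08 ± 0.34. Both were below 0 at 8 h on at least 3 of 4 arrays, and neither passed the threshold. GP070C3, with the fifth lowest 8 h mean, gave -0.20, -0.60, -0.10 and -1.19 (limma, adjusted p = 0.0909). At the other end, GP086B5 had a mean of 0.27 ± 0.08 over the 3 arrays with a value, and GP032D11 had 0.15 ± 1.23. The 8 h level depended on replicate 4. The median of the 46 on the 8 h arrays was 0.16, -0.30, 0.21 and -1.08 for replicates 1 to 4, and 43 of the 46 were below 0 on replicate 4. In the fits, the median over the features tested was -0.21 with all arrays and -0.01 without replicate 4. That fit left out the replicate at both 0 and 8 h and had unequal orientations, so its 8 h value also depended on the dye term.

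At 0 h limma called 0 of 45 features and 0 (0%) of all features tested. At an unadjusted p under 0.05 there were 7 of 45, all negative, against 1.42% of all features. This count rested on single replicates. Counting either side, there were 0 of 45 without replicate 1 (2.17% of all features) and 16 of 44 without replicate 2 (3.94%). There were 1 of 44 without replicate 3 (2.76%) and 13 of 45 without replicate 4 (1.70%). The difference of 8 h minus 0 h was called for 0 of 45, against 0.244% of all features, with 3 at an unadjusted p under 0.05, all negative (2.47% of all). Without replicate 4 there were 15 of 45 at that level and 0 of them negative, against 7.09% of all features, with 2.89% negative. This direction therefore rested on replicate 4. With all replicates the median difference was 0.40 in the co-varying group and -0.13 in the other 27 features, whose 0 h median was -0.08.

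The rule was also applied to 3 replicates at a time and the chosen features were read on the replicate left out, with 7 or more of 9 early values below 0. Without replicate 1 it chose 128 features, of which 36 (28.1%) had an early mean below 0 on replicate 1, where 46.8% of all features judged did. Without replicate 2 it chose 27, and 19 (70.4%) were below 0 on replicate 2, against 55% of all. Without replicate 3 it chose 45, and 23 (51.1%) were below 0, against 45.9%. Without replicate 4 it chose 50, and 41 (82.0%) were below 0, against 55.8%. The early sign was more frequent than among all features on replicates 2 and 4, less frequent on replicate 1 and near the background on replicate 3. Leaving out 1 replicate also left unequal numbers of arrays in each orientation. A ratio that followed the channel would then favour the opposite sign on the replicate left out. These shares cannot separate that from treatment, and it was not tested.

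Higher late than early values were read in part on the replicates left out. The late mean exceeded the early mean in 48.4%, 77.8% and 60.0% of the features chosen without replicates 1, 2 and 3 and in 25 of the 50 chosen without replicate 4, against 48.3%, 51.5%, 49.7% and 51.7% of all features. The median late minus early difference read there was -0.02, 0.34, 0.08 and 0.01. On replicates 1 and 4 these shares were within 2 percentage points of those of all features. Should 2 arrays of a time point be repeat labellings of 1 RNA pair, the array read was not independent of the choice.

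Of the 236 features that met the early conditions, 13 had a late mean above -0.2 but less than 0.25 above the early mean. Those 13 were not examined. Another 177 had a late mean of -0.2 or lower, and they are the group compared here. Their 0 h mean was -0.2 or lower in 37 of 177 (20.9%), beside 24 of 45 early-low features. Their median early mean was -0.49, -0.54, -0.48 and -0.44 on replicates 1 to 4, while that of the 46 was -0.01, -0.58, -0.67 and -0.51. Their median spread between arrays of a time point was 0.32, beside 0.45. The values of the 46 mix unlike groups. Of the co-varying features, 16 of 18 had a 0 h mean of -0.2 or lower, with a replicate 1 median of 0.74 and a spread of 0.82. For the remaining features these were 8 of 23, -0.30 and 0.36. For those high at 22 h they were 0 of 4, -0.29 and 0.33. The mirror rule, with all signs exchanged, also held 46 features, with a median early mean of 0.44 and a median 0 h mean of 0.08. None of these differences between groups was tested, since the groups were chosen by their ratios.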

How the data were processed

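Values are the deposited log10 ratios of 10816 features on 32 arrays. The authors analysed them with Rosetta Resolver, per the labels; which channel was the numerator, the dyes, background correction and normalization: not given in the sources used here. Array medians of the log10 values lay between 0.00092 and 0.0152, and the extremes were exactly -2 and 2. Arrays had values for 10646 to 10809 features. Here the values were multiplied by 3.32 to log2 ratios, values at the limits (0.982%) were set missing, and replicates 2 and 4 were turned, because opposite orientations correlated below 0 on average from 2 to 22 h (-0.294 to -0.0187) and equal ones above it (0.120 to 0.335). At 0 h both were positive (0.177 and 0.169).

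The 46 features, their groups and the lists were chosen with earlier results of these data known. Of their 1472 values, 7 at the limits and 2 absent ones were left out, in 3 features. GP120D8 had no 0 h value and was not tested.

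The test used limma 3.58.1 in R 4.3.3 (lmFit, eBayes) on the 8 arrays at 0 and 8 h, with 1 coefficient per time point and 1 dye term, for features with 1 or more values per orientation at each time. It was two-sided, with Benjamini-Hochberg adjustment over all 10659 features and a threshold of 0.05. It was checked on simulated data, where it called 36% of features changed by 0.5 log2 units at 8 h and 92% of those changed by 1. The changed features were drawn from all features tested. The early-low features spread more between arrays of a time point (median SD 0.45, against 0.25 over judged features), so these shares need not hold for them. A count of 0 called therefore does not show that ratios of about 0.5 or less were absent, and it sets no limit for larger ones in these features. Features were named by fixed ranks (lowest early mean, largest late minus early difference, lowest and highest 8 h mean, nearest to the early limit, 2 each), since no gene names were available. Gene lists could not be applied. Alternatives are given in the closing section. The number of arrays limits the precision.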

Additional observations from a re-analysis of the deposited data

Results flagged for a closer look

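In 132 groups of 4 arrays, 10 had a highest or lowest value far from the other 3 by Dixon's test at 95%, where chance gives about 1 in 20, or 6.6. Among the features high at 22 h, the group median on replicate 2 at 10 h was -0.24, GP117E3 had -1.42 on replicate 2 at 2 h, and GP109H2 had 0.39 on replicate 2 at 4 h and -0.65 on replicate 4 at 6 h. Among the remaining features, GP032F2 had -0.077 on replicate 4 at 4 h, GP006C1 had 0.31 on replicate 1 at 2 h, GP090A6 had 1.58 on replicate 1 at 4 h and GP141E3 had -0.63 on replicate 2 at 12 h. GP086B5 had -2.17 on replicate 1 at 2 h and -0.47 on replicate 3 at 22 h.

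Between 8 h and 0 h, limma called a difference for 26 features of all tested, of which 0 were early-low features. GP098F5 was above 0 on all 4 arrays at 0 h (mean 0.11) and below 0 on all 4 at 8 h (mean -0.20), and the difference of -0.30 did not pass the threshold (limma, adjusted p = 0.753).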

How the results depend on the processing

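The number of early-low features was 46, and between 41 and 55 with limit values kept, the late mean without 22 h, or arrays centred or scaled. It was 7 with an early limit of -0.5, and 27 (without replicate 2) to 128 (without replicate 1) with 1 replicate left out. The 193 features called at 8 h became 339 with all 32 arrays, 109 with limit values kept, 114 with arrays averaged as dye swaps, 95 with arrays scaled, 94 without the 8 h array with many limit values (added after seeing the data), and 30 to 167 with 1 replicate left out (32, 30 and 41 without replicates 1, 2 and 4). The 26 called for 8 h minus 0 h became 85 with all 32 arrays, 16 with limit values kept, 15 with arrays averaged, 42 with values required on all 8 arrays, 1 without that 8 h array and 0 to 5 with 1 replicate left out. With the replicate block, 159 were called at 8 h and 0 for 8 h minus 0 h (775 at an unadjusted p under 0.05, limma). Replicate numbers were not taken as pairs in the main fit, although 22 of 32 arrays correlated best with their own number. Of 112 same-numbered pairs of arrays, 57 correlated above 0.1. Among the arrays of that fit, 1 of 4 at 0 h had its best 8 h match in its own number. Of the early-low features limma called 0 at 0 h, at 8 h and for the difference under the settings run, with 1 exception. With all 32 arrays it called 1 of 45 at 8 h, against 3.21% of all features. That fit also called the dye term of 11 of 45, against 30.1% of all features (counted after seeing the data). The median of the early-low features was -0.26 at 0 h, -0.41 without replicate 2 and -0.080 without the co-varying features (added after seeing the data). Leaving out 1 replicate gave -0.41 to -0.18 for the 0 h median, -0.36 to -0.01 for the 8 h median (-0.21 with all) and -0.04 to 0.25 for the difference (-0.01 with all). On replicates left out of the choice the early median was 0.22, -0.34, -0.02 and -0.25 for replicates 1 to 4. It averaged -0.10 (-0.20 to -0.02 with 1 replicate's reading left out) and late minus early 0.10 (0.02 to 0.14). With the sign turned, the medians at 8 h, 0 h and their difference were 0.21, 0.26 and 0.0058, and GP003E7, GP006C1, GP086B5, GP032D11, GP006E12, GP070C3 and GP141E3 stood at 0.66, 0.59, -0.21, -0.15, 0.43, 0.53 and 0.15 at 8 h. GP032D11 ran from -0.013 (without replicate 1) to 0.52 (without replicate 4). The cause of these changes was not tested.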
